A study of Mus musculus with 12 samples.

Results

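Mutant long-term haematopoietic stem cells (LT-HSC) of the mouse fetal liver were set against normal multipotent progenitors (MPP), and the libraries were taken by their titles: LT-HSC mutants 1 to 3 and MPP controls 1 to 3, which are 6 of the 12 RNA sequencing libraries of the series. The question was how near mutant stem cells stood to the normal progenitors that follow them, which differences between stem cell and progenitor remained in the mutant, and which were new. LT-HSC controls 1 to 3 served as the yardstick, because they show how far apart the cell types lie in controls. All fetuses were at stage E13.5. The LT-HSC mutants carried Setdb1 p/p;vav-cre. LT-HSC control 1 was Setdb1 +/p;+/+ and LT-HSC controls 2 and 3 were Setdb1 +/p;vav-cre. MPP controls 1 and 2 were Setdb1 +/p;+/+ and MPP control 3 was Setdb1 +/p;vav-cre. Every group therefore carried the p allele, which the labels do not define, and the controls of both cell types mixed fetuses with and without the transgene. The vav promoter drives Cre in blood cells. LT-HSC had the surface markers LSK CD150+ CD48- and MPP had LSK CD150- CD48+. Each LT-HSC sample held 500 to 1000 sorted cells and each MPP sample 20000, so cell number and cell type cannot be told apart in either comparison with MPP.

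Haematopoietic stem cells renew themselves and keep a set of transcription factors and adhesion receptors that progenitors lose, while MPP divide more and switch on the first lymphoid and myeloid genes. Setdb1 is an enzyme that places the H3K9 methylation found on silent chromatin, and in mouse cells it is known to keep endogenous retroviruses and some germline genes silent. Germline genes are normally read in oocytes, spermatocytes and their precursors and are mostly off in blood.

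The expected count per library, summed over genes, lay between 10119416 and 14113198 across the series. Values below are normalised read counts scaled to library size (CPM), and fold changes are on the log2 scale with their standard error (SE). Setdb1 itself had 66.5, 66.5 and 80.8 CPM in the LT-HSC mutants, against 83.9, 73.5 and 108 CPM in the LT-HSC controls and 140, 95.3 and 87.9 CPM in the MPP controls. All mutants were below all MPP controls, but the difference did not pass (log2 fold change -0.60 ± 0.19 SE, adjusted p = 0.0808, edgeR's quasi-likelihood test), and mutants and controls overlapped within LT-HSC. Counts summed over the whole gene do not show which exons were read. The labels do not say whether the samples of a group came from separate fetuses, so p-values measure the spread between these samples, which may be technical. The markers used to sort the cells followed their gates: Slamf1, which encodes CD150, had 41.6, 39.3 and 34.9 CPM in the LT-HSC mutants, against 2.39, 1.66 and 1.32 CPM in the MPP controls, and Cd48 had 10.62, 30.40 and 14.97 CPM in the LT-HSC mutants, against 259, 221 and 204 CPM in the MPP controls. These values check the sort and are no finding. The LT-HSC mutants varied most among themselves, with a median standard deviation per gene of 0.253 on the log2 scale, against 0.154 in the LT-HSC controls and 0.157 in the MPP controls.

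Over the whole transcriptome the mutant stem cells stood close to normal stem cells and far from normal progenitors. Each library was placed on the line from the LT-HSC controls, at 0, to the MPP controls, at 1, using the 12356 genes tested in all 3 comparisons of groups. LT-HSC mutants 1, 2 and 3 lay at -0.02, 0.24 and 0.25, against -0.05, -0.02 and 0.07 for the LT-HSC controls and 0.99, 1.14 and 0.89 for the MPP controls. LT-HSC mutants 2 and 3 lay beyond every LT-HSC control in the direction of MPP, mutant 1 lay among the LT-HSC controls, and no mutant reached the MPP range. The mean was 0.15 ± 0.15 in LT-HSC mutants and -0.002 ± 0.06 in LT-HSC controls (SD, n = 3 each), and the difference gave p = 0.2 in a two-sided exact permutation test, whose smallest possible p with 3 against 3 is 0.1. Each mutant lay nearer to MPP than the LT-HSC control with the same number, although the labels do not say that these samples are paired. An exact permutation test over the 3 same-numbered pairs, added after the data were seen, gave p = 0.25, the smallest it can give. Without LT-HSC mutant 1 the mutant mean was 0.242, and without LT-HSC mutant 3 it was 0.108.

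**Figure D1:**
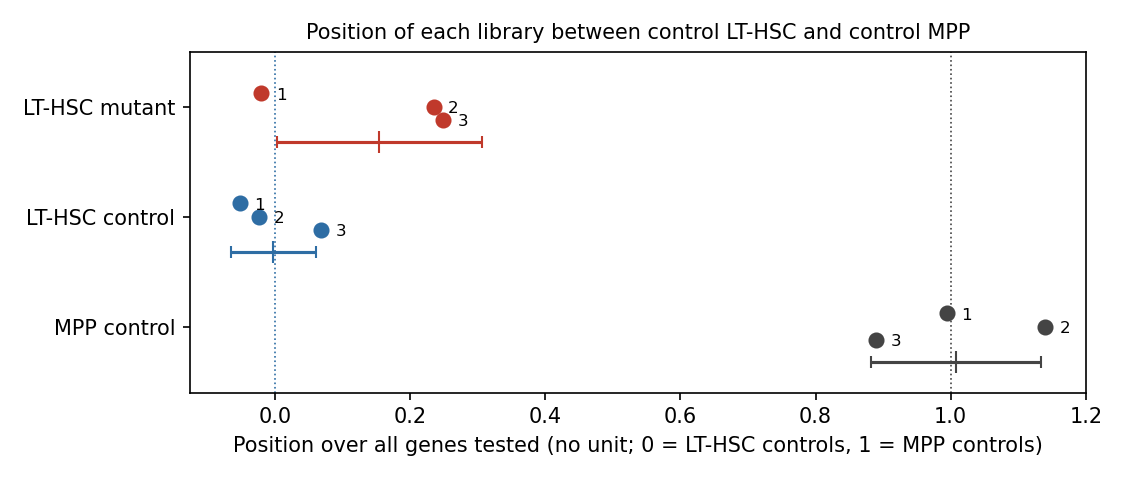
Position of each library (points, numbered by replicate) on the line from the LT-HSC controls (0) to the MPP controls (1), over 12356 genes and without unit; the bar under each group is its mean and standard deviation. The 3 LT-HSC mutants lie between -0.02 and 0.25, and the 3 MPP controls between 0.89 and 1.14.

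Distances between group means gave the same picture from a measure that does not use that line. The root mean square difference per gene, after the spread within groups was taken off, was 0.739 on the log2 scale between LT-HSC mutants and MPP controls, 0.763 between LT-HSC controls and MPP controls, and 0.381 between LT-HSC mutants and LT-HSC controls. Leaving out 1 library at a time moved the distance between LT-HSC mutants and MPP controls between 0.624 and 0.828, and that between LT-HSC controls and MPP controls between 0.73 and 0.792. These ranges overlap, so the data do not separate the first distance from the second.

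Gene by gene, 1919 of 12640 genes passed between LT-HSC mutants and MPP controls (15.2%), 1068 of them higher (8.45%) and 851 lower (6.73%) in the LT-HSC mutants, by edgeR's quasi-likelihood test at an adjusted p under 0.05. Between LT-HSC controls and MPP controls 4942 of 12834 genes passed (38.5%), 2628 higher (20.5%) and 2314 lower (18.0%) in LT-HSC, and between LT-HSC mutants and LT-HSC controls 54 of 12847 (0.42%), where 1221 genes (9.5%) had an unadjusted p under 0.05. Of the 54, 33 were higher (0.257%) and 21 lower (0.163%) in the LT-HSC mutants, and the 54 became 13 to 17 without LT-HSC mutant 1 or any 1 LT-HSC control and 102 without LT-HSC mutant 2. The comparisons share libraries, so their counts are not independent. The smaller number against MPP in the mutants cannot be read as a smaller difference, and its cause was not tested. The distance to MPP controls was 0.739 for LT-HSC mutants (0.624 to 0.828 without 1 library) and 0.763 for LT-HSC controls. The median standard deviation per gene was 0.253 in LT-HSC mutants and 0.154 in LT-HSC controls. Counts were also simulated for each comparison, with 1 common spread for all genes and both groups. On these the test recovered 49.5% of genes changed by 1 log2 unit between LT-HSC mutants and MPP controls. Between LT-HSC controls and MPP controls it recovered 87%. The simulation held neither the spread of single genes nor a wider spread for the mutants alone. The 1919 calls became 1235 without LT-HSC mutant 1, 827 without MPP control 1, 806 without MPP control 2 and 978 without MPP control 3. As a background for single genes, LT-HSC mutants and MPP controls did not overlap in 18.7% of genes (higher) and 18.0% (lower), and LT-HSC mutants and LT-HSC controls in 6.89% (higher) and 9.58% (lower).

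Of the 12356 genes tested in all 3 comparisons, 1509 (12.2%) differed from the MPP controls in the same direction in mutant and in control LT-HSC and are called remaining differences, 883 of them higher and 626 lower in LT-HSC. That count became 948 without LT-HSC mutant 1, 645 without MPP control 1, 604 without MPP control 2 and 771 without MPP control 3. New differences, which separated the LT-HSC mutants from both the MPP controls and the LT-HSC controls in the same direction and were not remaining, numbered 26 (0.21%), 18 higher and 8 lower. Reduced differences, where control LT-HSC differed from MPP and the mutants differed from control LT-HSC in the opposite direction, numbered 18 (0.146%). Without LT-HSC mutant 1 or any 1 LT-HSC control, the new differences became 10 to 12 and the reduced ones 1 to 3, and without LT-HSC mutant 2 they became 57 and 32. A further 3122 genes passed between LT-HSC controls and MPP controls but not between LT-HSC mutants and MPP controls, and only 8 of these passed between LT-HSC mutants and LT-HSC controls, so for all the others the data do not show that the mutant had changed. Of the genes that passed between LT-HSC mutants and MPP controls, 202 passed in neither of the other comparisons.

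**Figure D2:**
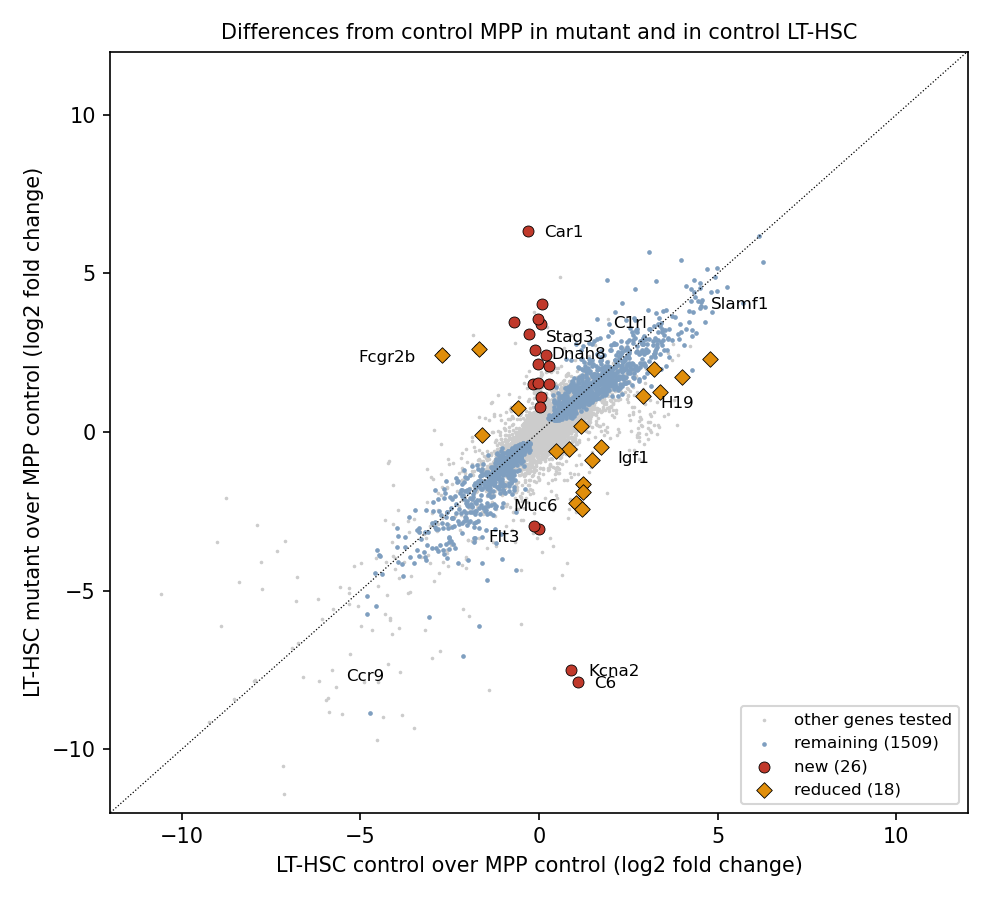
Log2 fold change of every gene tested in both comparisons with MPP controls, in LT-HSC mutants (vertical) and in LT-HSC controls (horizontal). The dotted line marks equal values. All 18 reduced genes are drawn as diamonds, and these include the 7 that are also new. Remaining differences (blue) run along the line, while new genes such as Car1 (6.35 in mutants, -0.31 in controls) leave it; C6 and Kcna2 had 0 counts in all LT-HSC mutants, so their fitted fold changes are not sizes.

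Stem cell genes were higher in mutant LT-HSC than in MPP, as in control LT-HSC. Of 43 tested stem cell genes, 25 were higher and 1 lower in LT-HSC mutants than in MPP controls, with a median log2 fold change of 1.10, against -0.01 over all genes. In LT-HSC controls 34 of 43 were higher and 1 lower, with a median of 1.38, and between LT-HSC mutants and LT-HSC controls 0 of 44 passed in edgeR's quasi-likelihood test, 10 had an unadjusted p under 0.05 and 1 passed in DESeq2. Without single libraries the 25 ranged from 19 (without MPP control 1) to 34 (without LT-HSC mutant 2). Of the 43, all tested in all 3 comparisons, 25 were remaining differences and 0 were new. Over all genes 8.45% were higher in LT-HSC mutants than in MPP controls and 12.2% were remaining differences. Only 0.21% of all genes were new and 0.42% passed between the LT-HSC groups. The counts of 0 are near these shares, so they do not show that the list was unchanged. Markers of endothelium, which share Esam, Tek and Robo4 with the stem cell list, moved with it: 6 were higher and 1 lower of 16 in LT-HSC mutants than in MPP controls (median 0.70), against 11 higher and 1 lower of 17 in LT-HSC controls (median 0.75). Their summed level was 1372, 1289 and 998.9 CPM in the LT-HSC mutants, against 1497, 1453 and 1431 CPM in the LT-HSC controls and 742, 739.6 and 787.4 CPM in the MPP controls, 0 of the 20 were at 0 in all 9 libraries, and their part in the stem cell result was not tested. Esam, an adhesion molecule of stem cells and endothelium, had 228, 178 and 166 CPM in the LT-HSC mutants, against 259, 243 and 257 CPM in the LT-HSC controls and 32.5, 29.5 and 36.3 CPM in the MPP controls. All LT-HSC libraries were far above all MPP libraries (2.53 ± 0.15 SE for the mutants, adjusted p = 0.000283, edgeR's quasi-likelihood test), and mutants and controls of LT-HSC did not overlap, although the test between them did not pass (-0.37 ± 0.12 SE, adjusted p = 0.399). Vwf, the von Willebrand factor that marks platelet-primed stem cells, had 335, 165 and 191 CPM in the LT-HSC mutants, against 225, 148 and 124 CPM in the LT-HSC controls and 4.01, 5.48 and 9.75 CPM in the MPP controls. Here the groups of LT-HSC overlapped and both stood clear of MPP (5.15 ± 0.41 SE for the mutants, adjusted p = 0.00052).

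Mecom, Hoxb5 and Procr are members of the list chosen after their values were seen. Mecom, the transcription factor EVI1, averaged 208 ± 80.3 CPM in LT-HSC mutants, 243 ± 43.3 CPM in LT-HSC controls and 29.8 ± 3.33 CPM in MPP controls (SD, n = 3 each). Hoxb5, a homeobox gene that marks long-term stem cells, averaged 10.3 ± 3.76 CPM in LT-HSC mutants, 14.4 ± 1.45 CPM in LT-HSC controls and 0.729 ± 0.0862 CPM in MPP controls. Procr, the endothelial protein C receptor, averaged 89.3 ± 33.5 CPM in LT-HSC mutants, 144 ± 13.9 CPM in LT-HSC controls and 13.2 ± 2.67 CPM in MPP controls. The log2 fold changes of LT-HSC mutants over MPP controls were 2.78 for Mecom, 3.80 for Hoxb5 and 2.74 for Procr, and all 3 passed. The member that was lower, Msi2 (-0.44, adjusted p = 0.0367), an RNA-binding protein, lost its call under nearly every alternative. Outside the list, the genes with the smallest p included Trpc6, a calcium-permeable channel, with 65.8, 47.9 and 39.5 CPM in the LT-HSC mutants, against 68.9, 82.9 and 70.5 CPM in the LT-HSC controls and 3.01, 2.91 and 3.72 CPM in the MPP controls (3.98 ± 0.24 SE). Tgm2, a transglutaminase, was almost the same in both LT-HSC groups, with 201, 182 and 154 CPM in the mutants, against 208, 181 and 165 CPM in the LT-HSC controls and 42.4, 36.4 and 42.6 CPM in the MPP controls (2.14 ± 0.13 SE against MPP).

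**Figure D3:**
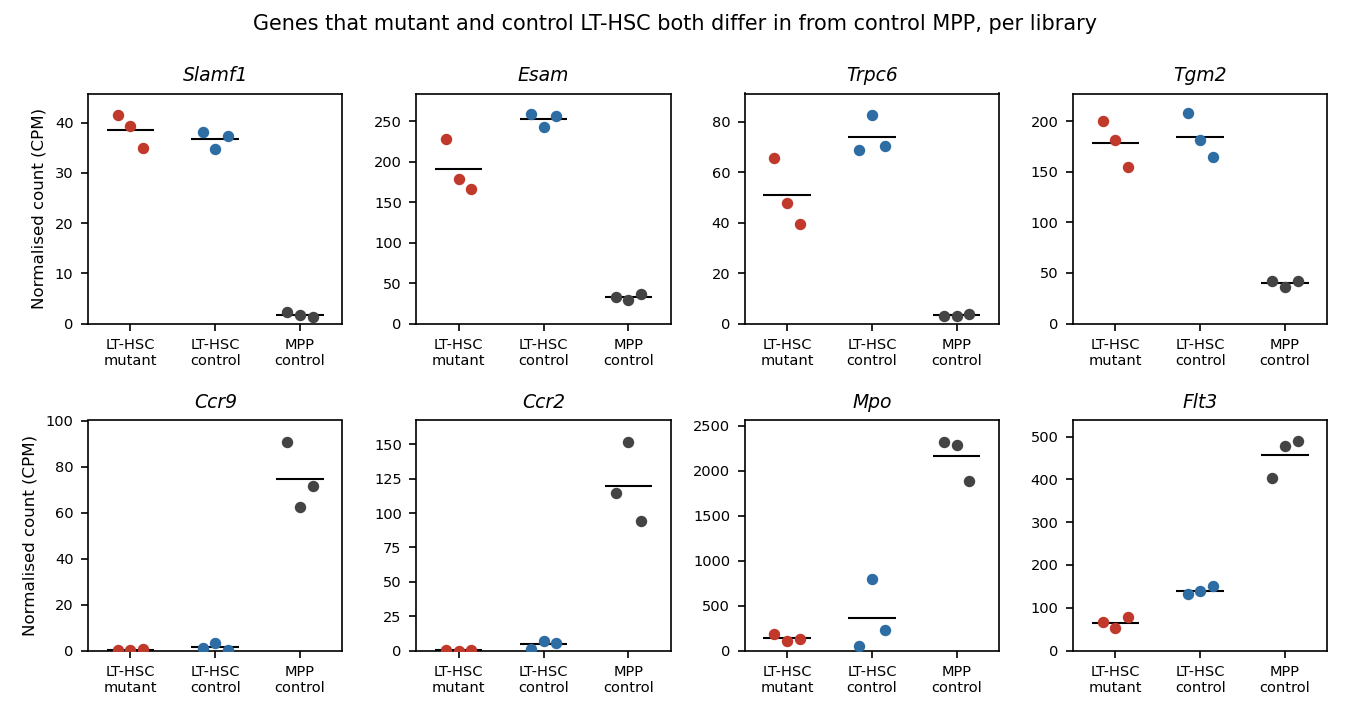
Normalised counts (CPM, linear axes from 0) of 8 genes in every library; points are libraries and lines are group means. Slamf1, Esam, Trpc6 and Tgm2 are high in both LT-HSC groups, and Ccr9, Ccr2, Mpo and Flt3 are high in MPP controls.

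Lymphoid genes were low in mutant LT-HSC, as in control LT-HSC. Of 29 tested lymphoid genes, 21 were lower and 1 higher in LT-HSC mutants than in MPP controls, against 20 lower and 1 higher in LT-HSC controls. Only 17 of the 29 were also tested in both other comparisons; the others passed the filter on low counts through MPP, where they are high, so they had to be lower and their count says nothing more. Of the 17, 11 were remaining differences and 0 were new, against 12.2% and 0.21% of all genes. The count of 0 is near its share and is no result about the list. Another 7 of the 36 members did not pass the filter. Ccr9, a chemokine receptor of thymus-seeding progenitors, had 0.0824, 0.192 and 0.516 CPM in the LT-HSC mutants, against 1.06, 3.17 and 0.0754 CPM in the LT-HSC controls and 90.7, 62.3 and 71.3 CPM in the MPP controls. It is one of the members that passed the filter through MPP, and it was low in all LT-HSC libraries. Il7r, the interleukin-7 receptor, and Rag1, a recombinase of antigen receptor genes, had 0 counts in all LT-HSC mutants against means of 28.1 and 15.1 CPM in the MPP controls. Against a floor of 3 counts over the 3 mutant libraries, Il7r was at least 339-fold lower and Rag1 at least 182-fold lower. Both passed the filter in this comparison through MPP and had to be lower, so these bounds are a description. Gata3, a T cell factor that stem cells also express, was the member that was higher (1.38, adjusted p = 0.00443).

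Flt3, the receptor whose gain marks the step from stem cell to progenitor, differed among all 3 groups. It had 65.6, 52.0 and 78.2 CPM in the LT-HSC mutants, against 132, 139 and 150 CPM in the LT-HSC controls and 402, 478 and 490 CPM in the MPP controls. No groups overlapped, and the mutants lay farther from MPP than the LT-HSC controls did (-2.81 ± 0.18 SE for the mutants and -1.70 ± 0.10 SE for the LT-HSC controls, both against MPP). The test between the LT-HSC groups passed (-1.06 ± 0.15 SE, adjusted p = 0.044, edgeR's quasi-likelihood test) and lost its call without LT-HSC mutant 1 or any 1 LT-HSC control.

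Myeloid genes and antigen presentation followed. Of 36 tested genes of granulocytes and monocytes, 16 were lower and 1 higher in LT-HSC mutants than in MPP controls, against 21 lower and 0 higher of 35 in LT-HSC controls, and of the 33 tested in all 3 comparisons 12 were remaining differences. The others, Ly6c1 among them, passed the filter on low counts through the group where they are high, so their direction was fixed. Mpo, the myeloperoxidase of neutrophil granules, had 184, 106 and 127 CPM in the LT-HSC mutants, against 53.4, 794 and 232 CPM in the LT-HSC controls and 2324, 2288 and 1891 CPM in the MPP controls. The mutants were tight and low, while the LT-HSC controls spread widely around them (-3.97 ± 0.21 SE for the mutants against MPP, adjusted p = 0.000283, edgeR's quasi-likelihood test). Ccr2, a monocyte chemokine receptor, had 0.412, 0 and 0.295 CPM in the LT-HSC mutants, against 0.858, 6.999 and 5.729 CPM in the LT-HSC controls and 114, 152 and 94.1 CPM in the MPP controls. Ly6c1 went the other way, with 7.17, 6.33 and 4.72 CPM in the LT-HSC mutants, against 1.32, 1.62 and 0.377 CPM in the LT-HSC controls and 0.154, 0.0831 and 0.0827 CPM in the MPP controls. It was higher than in MPP (5.68 ± 0.42 SE, adjusted p = 0.000373) and did not pass between the LT-HSC groups (adjusted p = 0.15). Of 10 genes of antigen presentation by MHC class II, 7 were lower in LT-HSC mutants than in MPP controls and 8 were lower in LT-HSC controls, and of the 7 tested in all 3 comparisons 4 were remaining differences. The others passed the filter on low counts through MPP, where they are high, so they had to be lower and their count says nothing more. H2-DMa, which loads peptides onto class II molecules, averaged 16.1 ± 5.13 CPM in LT-HSC mutants, 21.3 ± 3.61 CPM in LT-HSC controls and 74.7 ± 11.3 CPM in MPP controls (SD, n = 3 each).

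Lars2, the mitochondrial leucyl-tRNA synthetase, was among the remaining lower genes outside the lists. It had 503, 674 and 722 CPM in the LT-HSC mutants, against 457, 491 and 574 CPM in the LT-HSC controls and 5855, 4918 and 5463 CPM in the MPP controls. All 6 LT-HSC libraries were low and the MPP libraries did not overlap them (-3.09 ± 0.18 SE for the mutants, adjusted p = 0.000283, edgeR's quasi-likelihood test). Cell input also separates these libraries, as stated for every comparison with MPP. Other lower genes were Serpinb1a (-3.15 ± 0.17 SE), an inhibitor of neutrophil serine proteases, St8sia1 (-4.54 ± 0.26 SE), a sialyltransferase of gangliosides, Slc18a1 (-2.98 ± 0.18 SE), a vesicular monoamine transporter, and Gpr97 (-3.94 ± 0.24 SE), an adhesion receptor of granulocytes. None of these 5 passed between LT-HSC mutants and LT-HSC controls.

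Megakaryocyte genes were higher in mutant LT-HSC than in MPP, as they were in control LT-HSC. Of 29 tested, 13 were higher and 1 lower (median 1.25), against 22 higher and 1 lower in LT-HSC controls (median 1.62), and the 13 became 7 without MPP control 1. Gp9, part of the platelet receptor for von Willebrand factor, had 62.3, 61.6 and 46.6 CPM in the LT-HSC mutants, against 47.5, 52.5 and 36.4 CPM in the LT-HSC controls and 13.6, 13.0 and 16.0 CPM in the MPP controls (1.99 ± 0.17 SE, adjusted p = 0.000678, edgeR's quasi-likelihood test). The LT-HSC groups overlapped, and MPP lay below both. The member that was lower was Clec1b, described below with the new differences.

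Red cell genes were less clear. Of 47 tested, 7 were higher and 0 lower in LT-HSC mutants than in MPP controls, against 32 higher and 0 lower in LT-HSC controls, yet the medians were nearly equal, 0.68 in the mutants and 0.72 in the LT-HSC controls. The 7 became 1 without MPP control 1 or without MPP control 2, 16 without LT-HSC mutant 2 and 12 with upper-quartile scaling. The summed level of the list was 7668, 6974 and 12330 CPM in the LT-HSC mutants, against 7378, 10350 and 8670 CPM in the LT-HSC controls and 5274, 4377 and 6144 CPM in the MPP controls. LT-HSC mutant 3 stood highest. Epor, the erythropoietin receptor, had 77.3, 88.9 and 154 CPM in the LT-HSC mutants, against 102, 85.2 and 97.9 CPM in the LT-HSC controls and 40.9, 51.5 and 40.9 CPM in the MPP controls, and its call against MPP (1.27 ± 0.28 SE, adjusted p = 0.0221, edgeR's quasi-likelihood test) was lost without any 1 MPP control.

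Cell cycle genes were mostly lower in control LT-HSC than in the more rapidly dividing MPP, while few of them passed in the mutants. Of 44 tested, 3 were lower and 1 higher in LT-HSC mutants than in MPP controls (median -0.25), against 29 lower and 1 higher in LT-HSC controls (median -0.36). The 3 lower members of 44 are near the share of all genes that were lower in the mutants (6.73%) and so are no result about the list, whereas the 29 in LT-HSC controls stand against 18.0% of all genes. Between LT-HSC mutants and LT-HSC controls (median 0.15) 0 of 44 passed in edgeR's quasi-likelihood test or in DESeq2 and 2 had an unadjusted p under 0.05, so the data do not show that the list differed between them. The summed level was 10730, 13070 and 11770 CPM in the LT-HSC mutants, against 10350, 11330 and 10870 CPM in the LT-HSC controls and 13950, 13350 and 13430 CPM in the MPP controls. Every MPP control was above every LT-HSC library, and LT-HSC mutant 2 was nearest to them. The sums of mutant and control LT-HSC overlapped. Each mutant sum was above that of the LT-HSC control with the same number, but the labels do not say that these samples are paired. Without LT-HSC mutant 2, 9 genes were lower. Cdk6, the kinase that drives entry into the cycle, kept its difference, with 16.6, 11.6 and 18.8 CPM in the LT-HSC mutants, against 18.0, 11.6 and 14.0 CPM in the LT-HSC controls and 42.2, 54.0 and 40.8 CPM in the MPP controls (-1.55 ± 0.22 SE, adjusted p = 0.00424, edgeR's quasi-likelihood test).

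Of 13 tested genes of the fetal stem cell programme, 3 were higher and 4 lower in LT-HSC mutants than in MPP controls, against 7 higher and 6 lower in LT-HSC controls, and the 4 became 1 without MPP control 2. Between LT-HSC mutants and LT-HSC controls 2 were lower (Igf2 and H19, described below) in edgeR's quasi-likelihood test, and 4 of the 13 passed in DESeq2. Hmga2, a chromatin protein of fetal stem cells, had 116, 116 and 103 CPM in the LT-HSC mutants, against 165, 156 and 175 CPM in the LT-HSC controls and 307, 286 and 256 CPM in the MPP controls. No groups overlapped (-1.34 ± 0.11 SE for the mutants against MPP, adjusted p = 0.00052, edgeR's quasi-likelihood test), while the test between the LT-HSC groups did not pass (-0.53 ± 0.10 SE, adjusted p = 0.124). Mast cell and basophil genes had 1 higher and 3 lower of 7 tested in LT-HSC mutants and 0 higher and 4 lower of 7 in LT-HSC controls, and only 4 of their 15 members were tested in all 3 comparisons. The other tested members, such as Prss34 and Mcpt8 with 0 counts in all LT-HSC mutants, passed the filter through MPP and had to be lower. Glycolysis had 5 higher and 1 lower of 24, inhibitors of cyclin-dependent kinases with p53 targets 4 higher of 24, interferon-stimulated genes 2 higher and 1 lower of 51, immediate early and heat shock genes 1 higher and 2 lower of 17, and the machinery of H3K9 methylation and HUSH 1 higher and 2 lower of 24. Over all genes 8.45% were higher and 6.73% lower, and the last 3 lists, near or below these shares, give no result. LT-HSC controls had 5 higher and 7 lower of 24 for glycolysis and 10 higher and 1 lower of 25 for the inhibitors. They had 6 higher and 12 lower of 51 interferon-stimulated, 3 higher and 3 lower of 16 immediate early, and 1 higher and 6 lower of 24 H3K9 genes. Over all genes 20.5% were higher and 18.0% lower there. Of the 5 genes of glycolysis that were higher in LT-HSC mutants, 0 passed without MPP control 1 or without MPP control 2. Of the 2 interferon-stimulated genes that were higher in the mutants, 0 passed without any 1 MPP control. The 3 higher genes of the fetal list likewise became 0 without LT-HSC mutant 1 or MPP control 2. Interferon-stimulated genes had 11 higher members without LT-HSC mutant 3.

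**Figure D4:**
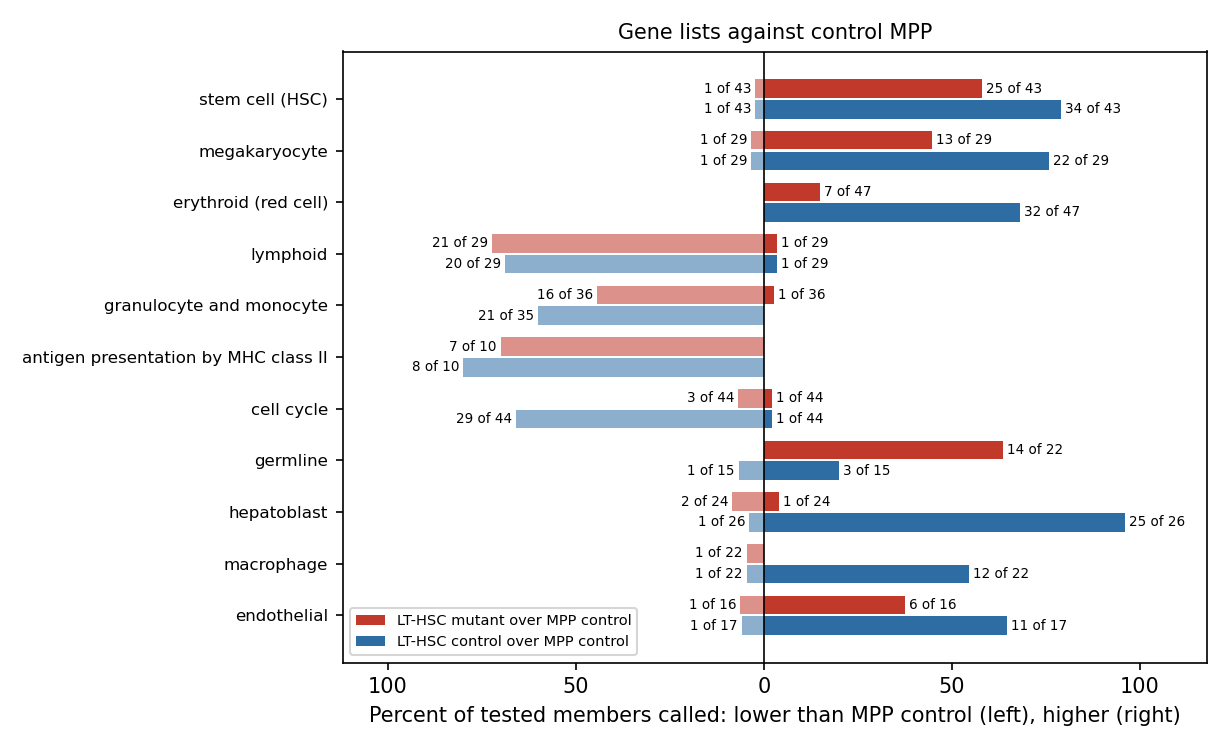
Share of the tested members of 11 gene lists that were lower (left, pale) or higher (right) than in MPP controls, in LT-HSC mutants (red, upper bar of each pair) and in LT-HSC controls (blue, lower bar); numbers give the count of tested members. Germline genes are higher in 14 of 22 in the mutants and 3 of 15 in the controls, and hepatoblast genes in 1 of 24 and 25 of 26. Members that passed the filter on low counts through 1 group only had a fixed direction. This holds for the germline members tested in the mutants but not in the controls, so these shares are a description. Of the 15 germline members tested in all 3 comparisons, 3 were remaining differences and 4 new.

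Of the 26 new differences, 4 were on the germline list (Stag3, Dnah8, Iqcg and M1ap), all of them higher. Of 22 tested germline genes, 14 were higher and 0 lower in LT-HSC mutants than in MPP controls, and 7 of 24 were higher and 0 lower in LT-HSC mutants than in LT-HSC controls. In LT-HSC controls 3 were higher and 1 lower than in MPP among 15 tested. The other 26 of the 48 members did not pass the filter on low counts between LT-HSC mutants and MPP controls, and members that pass only through the group where they are high must differ, so the 14 are a description. Of the 15 members tested in all 3 comparisons, 3 were remaining differences and 4 new. Summed over the list, the level was 909, 813 and 1105 CPM in the LT-HSC mutants, against 239, 265 and 269 CPM in the LT-HSC controls and 230, 239 and 267 CPM in the MPP controls. The mutants stood far above both control groups, which overlapped each other.

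Stag3, a cohesin subunit of meiosis on chromosome 5, had 165, 130 and 170 CPM in the LT-HSC mutants, against 13.8, 17.2 and 13.3 CPM in the LT-HSC controls and a mean of 17.9 ± 3.87 CPM (SD, n = 3) in the MPP controls, none above 20.4 CPM. Control LT-HSC and MPP overlapped, and every mutant was above both (3.10 ± 0.20 SE against MPP, adjusted p = 0.000294, and 3.43 ± 0.16 SE against LT-HSC controls, adjusted p = 0.00016, edgeR's quasi-likelihood test). Dnah8, a dynein heavy chain of the sperm tail on chromosome 17, had 145, 121 and 142 CPM in the LT-HSC mutants, against 20.3, 20.8 and 21.3 CPM in the LT-HSC controls and 19.6, 24.8 and 24.1 CPM in the MPP controls. It was new with a log2 fold change of 2.57 ± 0.15 SE against MPP. Iqcg, needed for sperm flagella in the mouse, had 53.5, 58.5 and 42.5 CPM in the LT-HSC mutants, against 2.84, 2.06 and 3.69 CPM in the LT-HSC controls and 3.63, 4.82 and 5.54 CPM in the MPP controls (3.46 ± 0.23 SE against MPP). M1ap, a gene of male meiosis, rose as well (3.55 ± 0.25 SE against MPP), with 48.5, 46.9 and 74.8 CPM in the LT-HSC mutants, against 4.56, 4.49 and 5.20 CPM in the LT-HSC controls and 5.40, 4.98 and 4.13 CPM in the MPP controls. These 4 genes kept their calls against both control groups under every alternative tried. So did Trap1a, Tmem150c, 4930550L24Rik, Car1, Akap5, Rps4l, 2810474O19Rik and 1700097N02Rik, described below, and these 12 were the only genes of 53 examined that kept the call against LT-HSC controls throughout. The other new genes lost it when single LT-HSC libraries were left out. Trap1a, Tmem150c and 4930550L24Rik passed the filter on low counts through the mutants. Their direction was therefore fixed, and their kept calls are a description.

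Their start sites are shown because these genes were off or low in both normal cell types and moved together in the mutants. The sequences are RefSeq's, on GRCm38.p6, 250 bases before to 50 after the start of the transcript that RefSeq's table uses, printed on each gene's own strand. That start is not the outermost one for Stag3 and Iqcg, whose annotated genes begin 7745 and 709 bases upstream of the windows shown. Stag3 lies at chr5:138280259-138280558 on the plus strand, and the capitals mark the E-box CACGTG.
Stag3 promoter: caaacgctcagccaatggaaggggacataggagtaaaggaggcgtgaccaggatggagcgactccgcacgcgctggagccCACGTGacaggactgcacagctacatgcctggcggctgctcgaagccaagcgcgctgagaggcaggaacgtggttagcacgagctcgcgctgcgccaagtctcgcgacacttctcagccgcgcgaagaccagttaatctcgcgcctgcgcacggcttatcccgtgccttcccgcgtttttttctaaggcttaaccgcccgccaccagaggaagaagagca
Iqcg lies at chr16:33056137-33056436 on the minus strand, and the capitals mark GGCGGGAA, an E2F-type motif, on the opposite strand.
Iqcg promoter: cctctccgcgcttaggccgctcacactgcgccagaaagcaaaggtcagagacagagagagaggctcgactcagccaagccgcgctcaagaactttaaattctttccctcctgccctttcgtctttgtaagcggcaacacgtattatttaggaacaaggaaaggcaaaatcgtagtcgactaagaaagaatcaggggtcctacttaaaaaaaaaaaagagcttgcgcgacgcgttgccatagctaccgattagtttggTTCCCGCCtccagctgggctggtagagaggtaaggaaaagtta
Dnah8 lies at chr17:30626686-30626985 on the plus strand, and the capitals mark its 16 CpG dinucleotides, some of which touch.
Dnah8 promoter: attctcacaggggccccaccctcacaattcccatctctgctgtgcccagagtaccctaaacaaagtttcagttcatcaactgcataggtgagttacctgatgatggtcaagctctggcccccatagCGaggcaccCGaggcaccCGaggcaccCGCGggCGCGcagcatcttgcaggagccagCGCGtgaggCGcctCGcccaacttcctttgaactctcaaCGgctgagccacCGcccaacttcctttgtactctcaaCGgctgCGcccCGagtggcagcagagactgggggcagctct

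Among the 27 genes that were higher in LT-HSC mutants than in both control groups (18 new differences and 9 genes too low in controls to be tested there), 24 had a promoter entry, with 27 windows. Of the motifs searched on both strands, CACGTG was in 7.41% of these windows, against 7.15% of all 32851 windows of the same length, and GGCGGGAA in 3.7%, against 2.19%. The others were AGATAAG (3.7%, against 3.04%), CAGGTG (29.6%, against 20.2%), CACCC (66.7%, against 57.5%), CGGAAG (25.9%, against 16.9%), TTCCTCTT (0%, against 3.56%) and TGCCCTTG (0%, against 1.42%). With 27 windows, 1 window is 3.7%, so none of these shares stands out. The windows held a median of 15 CpG, against 7 over all windows, which are not limited to genes read in these cells. Tmem150c entered with windows of 13, 21 and 37 CpG and Zcwpw1 with windows of 17 and 23, so the medians are a description. The windows of Dnah8 and of the long noncoding RNA 1700097N02Rik, which starts 29 bases away on the other strand, share 130 bases. That RNA was new too, with 124, 116 and 145 CPM in the LT-HSC mutants, against 14.3, 14.1 and 8.97 CPM in the LT-HSC controls and 6.71, 12.8 and 16.9 CPM in the MPP controls. The libraries do not keep the strand, so reads near the shared start cannot be divided between the pair with certainty.

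The other 9 genes passed between LT-HSC mutants and both control groups but were too low to be tested between the controls. They passed the filter on low counts through the mutants, so their direction, higher in the mutants, was fixed by it, and their values are a description. Trap1a, a tumour rejection antigen of placenta and testis on chromosome X, had 173, 119 and 187 CPM in the LT-HSC mutants, against 0.726, 0.958 and 0 CPM in the LT-HSC controls and 0, 0.914 and 0.413 CPM in the MPP controls. Tex19.1, a germline gene that restrains retrotransposons, had 49.3, 49.4 and 145 CPM in the LT-HSC mutants, against 0, 0.221 and 0 CPM in the LT-HSC controls and 0 in all MPP controls. That made it at least 1000-fold higher than in MPP against a floor of 3 counts over the group. Gm1564, which RefSeq lists as the meiosis gene Meioc, had 9.88, 13.52 and 43.81 CPM in the LT-HSC mutants, against 0 in all LT-HSC controls and 0.154, 0 and 0.0827 CPM in the MPP controls. Tex19.1 and Gm1564 were highest in LT-HSC mutant 3. Fbp2, the muscle fructose bisphosphatase of gluconeogenesis, had 16.8, 49.8 and 18.4 CPM in the LT-HSC mutants, against 0.198, 0 and 0 CPM in the LT-HSC controls and 0.0771, 0.166 and 0.413 CPM in the MPP controls. Of 6 tested genes of gluconeogenesis, the others did not pass. Gm1564 lost its call against LT-HSC controls without LT-HSC mutants 1 or 2 or any 1 LT-HSC control, and Fbp2 without any 1 LT-HSC control. The others were Tmem150c, Amotl1, Prr19, Arl14epl and 4930550L24Rik, and Prr19 and Arl14epl lost that call in the fit with replicate number as a block.

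Not every germline gene that exceeded MPP was new. Rec8, a meiotic cohesin subunit, averaged 20.2 ± 5.28 CPM in LT-HSC mutants, 16.8 ± 2.97 CPM in LT-HSC controls and 3.78 ± 0.186 CPM in MPP controls (SD, n = 3 each), and Spo11, the nuclease that starts meiotic recombination, averaged 6.43 ± 1.35 CPM in LT-HSC mutants, 3.62 ± 0.983 CPM in LT-HSC controls and 0.432 ± 0.057 CPM in MPP controls. Both passed in mutant and in control LT-HSC against MPP and did not pass between the LT-HSC groups. Members with no called difference included Ddx4, a germ cell helicase, with 41.1 ± 8.46 CPM in LT-HSC mutants and 33.2 ± 7.03 CPM in MPP controls, and Syce2, a synaptonemal complex protein, with 109 ± 7.74 CPM in LT-HSC mutants and 108 ± 6.14 CPM in MPP controls.

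Genes that are not on the germline list were also new. Car1, carbonic anhydrase 1 of red cells, had 438, 580 and 1372 CPM in the LT-HSC mutants, against 5.68, 9.73 and 8.29 CPM in the LT-HSC controls and 9.41, 10.1 and 10.0 CPM in the MPP controls. Its level in the mutants was uneven but far above both control groups (6.35 ± 0.51 SE against MPP, adjusted p = 0.000528, and 6.70 ± 0.53 SE against LT-HSC controls, adjusted p = 0.00201, edgeR's quasi-likelihood test), and it was the only 1 of 47 tested red cell genes that passed between the LT-HSC groups. Gstp2 and Gstp1, neighbouring and similar genes for glutathione transferases whose reads may be shared, had log2 fold changes of 4.04 ± 0.41 SE and 1.503 ± 0.163 SE against MPP. Gstp2 had 52.7, 74.1 and 141 CPM in the LT-HSC mutants, against 4.69, 5.75 and 6.86 CPM in the LT-HSC controls and 6.17, 5.82 and 4.38 CPM in the MPP controls. 2810474O19Rik, which RefSeq lists as Resf1, a retroelement silencing factor, had 445, 316 and 460 CPM in the LT-HSC mutants, against 97.8, 77.2 and 81.3 CPM in the LT-HSC controls and 72.4, 81.0 and 73.2 CPM in the MPP controls. It was higher by 2.42 against MPP (adjusted p = 0.000294), and no group of controls overlapped the mutants. Zcwpw1, a reader of histone marks in meiosis, rose less (1.53 ± 0.17 SE against MPP), and its call against LT-HSC controls (adjusted p = 0.0456) was lost in the fit with replicate number as a block and without any 1 LT-HSC library. Further new genes were Rps4l, Slc1a4, Akr1c13, Ldoc1l and Zfp110. RefSeq lists Rps4l as a transcribed pseudogene, and similar copies of this ribosomal protein sequence may share its reads.

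Fcgr2b and Akap5 ended on the far side of MPP. Fcgr2b, an inhibitory receptor for antibodies on B and myeloid cells, had 52.1, 56.9 and 34.7 CPM in the LT-HSC mutants, against 0.726, 2.80 and 0.528 CPM in the LT-HSC controls and 9.64, 8.97 and 8.10 CPM in the MPP controls. No groups overlapped: control LT-HSC were below MPP (-2.71 ± 0.49 SE) and mutant LT-HSC above it (2.42 ± 0.21 SE, adjusted p = 0.000746, edgeR's quasi-likelihood test). Akap5, an anchor for protein kinase A, had 25.5, 28.4 and 16.6 CPM in the LT-HSC mutants, against 1.52, 0.884 and 1.13 CPM in the LT-HSC controls and 3.93, 3.49 and 3.97 CPM in the MPP controls (2.62 ± 0.25 SE for the mutants and -1.67 ± 0.33 SE for the LT-HSC controls, both against MPP). In all, 11 genes passed against MPP with opposite signs in mutant and control LT-HSC, with 4 above and 7 below MPP in the mutants. Of the 11, 7 also passed between the LT-HSC groups and count as both new and reduced.

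**Figure D5:**
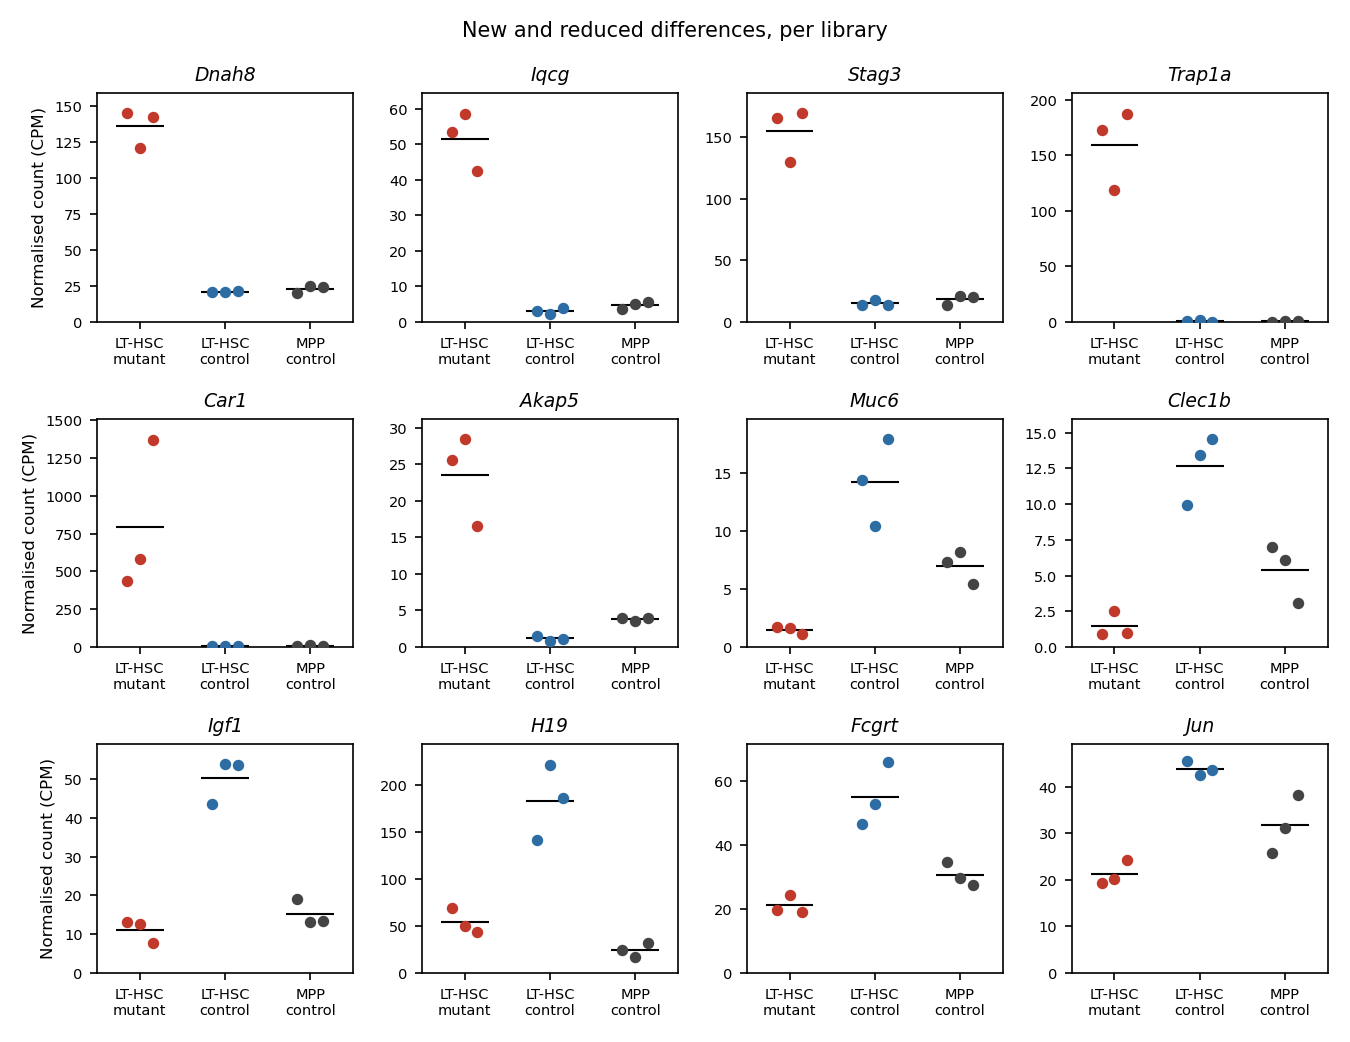
Normalised counts (CPM, linear axes from 0) of 12 genes in every library; points are libraries and lines are group means. The upper row and the left pair of the middle row are higher in LT-HSC mutants than in both controls, and the other 6 genes are lower in LT-HSC mutants than in LT-HSC controls.

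Among the 8 new lower genes, Muc6, a secreted mucin, had 1.73, 1.63 and 1.11 CPM in the LT-HSC mutants, against 14.4, 10.5 and 17.9 CPM in the LT-HSC controls and 7.33, 8.22 and 5.46 CPM in the MPP controls. The mutants were below both control groups without overlap (-2.24 ± 0.31 SE against MPP, adjusted p = 0.00389, edgeR's quasi-likelihood test). Clec1b, the platelet receptor CLEC-2, had 0.906, 2.49 and 0.959 CPM in the LT-HSC mutants, against 9.97, 13.4 and 14.6 CPM in the LT-HSC controls and 7.02, 6.06 and 3.06 CPM in the MPP controls. Its call against MPP (-1.90 ± 0.51 SE, adjusted p = 0.0454) rested on every library but LT-HSC mutant 2. Cd36, a scavenger receptor for lipids, fell likewise (-1.65 ± 0.35 SE, adjusted p = 0.0192) and lost that call without LT-HSC mutant 1 or MPP controls 1 or 3. C6, a complement component, and Kcna2, a potassium channel, had 0 counts in all 3 LT-HSC mutants, against ranges of 3.57 to 6.56 CPM and 2.79 to 3.98 CPM in the LT-HSC controls and 1.16 to 3.16 CPM and 1.08 to 2.33 CPM in the MPP controls. Both lost their calls against LT-HSC controls in the fit with replicate number as a block and, against MPP, without MPP control 1. The remaining ones were Gfra2, a receptor for neurturin (-3.07 against MPP), and Vldlr and Wfdc18, whose calls against LT-HSC controls were also lost with the block.

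Of the 18 reduced differences, 14 were genes that control LT-HSC held above MPP and mutant LT-HSC did not hold at that level. Growth factor and imprinted genes were among them. Igf1, a growth factor, had 13.01, 12.56 and 7.52 CPM in the LT-HSC mutants, against 43.5, 54.0 and 53.7 CPM in the LT-HSC controls and 18.98, 13.04 and 13.31 CPM in the MPP controls. The mutants lay below both control groups without overlap, but the difference from MPP did not pass (-0.46 ± 0.27 SE, adjusted p = 0.298) while that from control LT-HSC did (-2.15 ± 0.24 SE, adjusted p = 0.0152, edgeR's quasi-likelihood test). H19, an imprinted noncoding RNA, had 68.7, 49.4 and 43.1 CPM in the LT-HSC mutants, against 141, 221 and 185 CPM in the LT-HSC controls and 24.1, 16.4 and 31.8 CPM in the MPP controls. Mutants lay between the control groups without overlap, and the difference from MPP was both remaining and reduced (1.15 ± 0.27 SE against MPP, -1.73 ± 0.22 SE against LT-HSC controls). Igf2, its imprinted neighbour, had 34.0, 52.5 and 20.4 CPM in the LT-HSC mutants, against 145, 180 and 183 CPM in the LT-HSC controls and 7.95, 4.90 and 19.01 CPM in the MPP controls, and its difference from MPP in the mutants did not pass (1.74, adjusted p = 0.0706). Meg3, another imprinted noncoding RNA, had 19.11, 7.10 and 14.16 CPM in the LT-HSC mutants, against 54.7, 55.6 and 61.2 CPM in the LT-HSC controls and 3.39, 4.90 and 8.18 CPM in the MPP controls, and mutants and MPP controls overlapped.

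Genes that mark hepatoblasts and macrophages, the neighbours of blood cells in the fetal liver, varied between these groups too. The summed level of 27 hepatoblast genes was 329, 594 and 105 CPM in the LT-HSC mutants, against 639, 2169 and 2223 CPM in the LT-HSC controls and 433, 294 and 665 CPM in the MPP controls, and 0 of the 27 were at 0 in all 9 libraries. Of the hepatoblast genes, 25 of 26 tested were higher in LT-HSC controls than in MPP controls (median 2.85), but 1 of 24 was higher and 2 lower in LT-HSC mutants than in MPP controls (median 0.13). Between LT-HSC mutants and LT-HSC controls 0 of 26 passed in edgeR's quasi-likelihood test, 15 had an unadjusted p under 0.05 and 3 passed in DESeq2. Alb, the albumin of hepatocytes, averaged 25.6 ± 21.8 CPM in LT-HSC mutants, 180 ± 115 CPM in LT-HSC controls and 26.9 ± 23.2 CPM in MPP controls (SD, n = 3 each). For the 24 macrophage genes that sum was 832, 3319 and 1052 CPM in the LT-HSC mutants, against 2703, 3094 and 3587 CPM in the LT-HSC controls and 2435, 2175 and 1912 CPM in the MPP controls, so that LT-HSC mutant 2 had the level of the controls. Of 22 tested, 0 were higher and 1 lower in LT-HSC mutants than in MPP controls, and 17 were lower without LT-HSC mutant 2. Vcam1, an adhesion molecule of erythroid island macrophages, was the lower one, with 0.659, 10.2 and 0.148 CPM in the LT-HSC mutants, against 97.5, 103 and 116 CPM in the LT-HSC controls and 77.0, 57.0 and 51.6 CPM in the MPP controls (-4.12 ± 1.06 SE against MPP, adjusted p = 0.0386), and it lost the call without LT-HSC mutant 1 or any 1 MPP control. In these bulk libraries, fewer cells of a type and less RNA per cell cannot be told apart, and the part of such cells in the reduced differences was not tested.

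Other reduced differences were smaller or less stable. Fcgrt, the neonatal Fc receptor, had 19.7, 24.4 and 18.9 CPM in the LT-HSC mutants, against 46.3, 52.8 and 65.7 CPM in the LT-HSC controls and 34.6, 29.4 and 27.5 CPM in the MPP controls. Jun, a subunit of the AP-1 transcription factor, had 19.3, 20.2 and 24.2 CPM in the LT-HSC mutants, against 45.6, 42.7 and 43.7 CPM in the LT-HSC controls and 25.8, 31.2 and 38.4 CPM in the MPP controls. Neither passed between LT-HSC mutants and MPP controls (adjusted p = 0.0744 for Fcgrt and 0.0984 for Jun, edgeR's quasi-likelihood test), and Jun lost its call against LT-HSC controls with the block. Gem, a small GTPase, overlapped MPP in the mutants, with means of 61.1 CPM in LT-HSC mutants, 120 CPM in LT-HSC controls and 53.6 CPM in MPP controls. Ces2b, a carboxylesterase, Plekhg1, Tmem26, Muc6, Clec1b, Cd36 and Wfdc18 complete the 14, and Plekhg1 lost its call against LT-HSC controls with the block. In the opposite direction, Gapt, an adaptor of the GRB2 pathway, had 26.9, 23.1 and 17.9 CPM in the LT-HSC mutants, against 8.38, 8.47 and 6.56 CPM in the LT-HSC controls and 21.1, 25.8 and 24.1 CPM in the MPP controls, where mutants and MPP overlapped. Alyref2, the last of the 4 with Fcgr2b and Akap5, lost its calls against LT-HSC controls and against MPP with the block. Except for Akap5, each of the 18 reduced genes lost its call between the LT-HSC groups when single libraries were left out.

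For 7 genes the LT-HSC mutants lay farther from MPP than the LT-HSC controls did, with a called difference in all 3 comparisons. They were Flt3 and 6 others. Def8, a gene of lysosome transport in osteoclasts, had 660, 387 and 510 CPM in the LT-HSC mutants, against 209, 185 and 186 CPM in the LT-HSC controls and 92.0, 77.8 and 85.6 CPM in the MPP controls (2.60 ± 0.19 SE for the mutants and 1.19 ± 0.10 SE for the LT-HSC controls, both against MPP). C1rl, a protease related to complement C1r, had 94.9, 64.0 and 74.8 CPM in the LT-HSC mutants, against 36.6, 34.1 and 27.1 CPM in the LT-HSC controls and 9.95, 9.64 and 10.3 CPM in the MPP controls. Plbd1, a phospholipase-like lysosomal protein, had 0.412, 1.44 and 0.738 CPM in the LT-HSC mutants, against 9.77, 10.5 and 12.9 CPM in the LT-HSC controls and 16.9, 16.7 and 18.8 CPM in the MPP controls (-4.35 ± 0.41 SE for the mutants and -0.65 ± 0.17 SE for the LT-HSC controls). In each of these genes the 3 groups did not overlap. Cldn10, a tight junction claudin, Ahsa2 and Smc5, part of a genome maintenance complex, were the others, and Smc5 lost its call against LT-HSC controls with the block. Every 1 of the 7 lost the call between the LT-HSC groups when single LT-HSC controls were left out.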

How the data were processed

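RNA from sorted fetal liver cells was made into libraries with a kit for ultra low input that does not keep the strand, per the labels' protocols. STAR, RSEM and the mm10 build are named in the submitters' processing notes, with no versions. The deposited tables, 1 per library with 24054 genes, held RSEM's expected counts and TPM as computed by the authors, per the file headers; TPM was not tested. Replicate numbers follow the titles.

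Expected counts were rounded, scaled by TMM and tested with edgeR 4.0.16 (quasi-likelihood, R 4.3.3) in fits of 6 libraries, with p-values adjusted by Benjamini and Hochberg's method (threshold 0.05); filterByExpr kept genes by a minimum count of 10 and a total of 15. SE is the log2 fold change divided by the root of F. CPM were TMM-scaled over all 12 libraries. Position and distance used log2 CPM with a prior count of 2, and each control was placed with itself held out. Bounds for genes at 0 used a floor of 3 counts over the group and cover counting error only. Expected counts per library bound the precision of low genes. The pipeline was tested on counts simulated with a common spread for all genes of a comparison. DESeq2 1.42.0, other scalings, a fit of all 12 libraries, no filter, the replicate number as a block and leaving out each library were alternatives.

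Deviations from the group means of libraries with the same number correlated at 0.108, 0.148 and 0.175 between LT-HSC mutants and LT-HSC controls. On that correlation alone, same-numbered samples of these groups were also compared as pairs for position and for the cell cycle sums. The reported gene tests had no term for pairing, and the replicate number as a block was only an alternative.

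The members, the 21 gene lists and the comparisons were chosen with earlier results of these data known. Genes were named by rule: up to 10 each way per comparison and category by smallest p, with a change of 1 log2 unit or more in the comparison with MPP and a mean of at least 10 CPM, and up to 4 called members per list. Rec8, Spo11, Ddx4, Syce2, Igf2, Meg3, Procr, Hoxb5, Mecom, Il7r, Rag1, Alb, Tex19.1, Gm1564, Fbp2, the genes with placeholder symbols and the other genes of the new, reduced and larger groups were named after their values were seen. Annotation matched 23949 genes by RefSeq accession or symbol.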

Additional observations from a re-analysis of the deposited data

How the results depend on the processing

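Mutant LT-HSC lay nearer to control LT-HSC than to control MPP, by position and by distance, under every alternative tried, with a mean position of 0.108 to 0.242 and distances of 0.624 to 0.828 (LT-HSC mutants and MPP controls), 0.73 to 0.792 (LT-HSC controls and MPP controls) and 0.299 to 0.488 (LT-HSC mutants and LT-HSC controls) when 1 library was left out. Over genes with a mean of at least 10 CPM the distances were 0.58, 0.603 and 0.257 in the same order. Counts moved more. Between LT-HSC mutants and MPP controls they were 3320 with all 12 libraries in 1 fit, 774 against only the MPP control with vav-cre, and 806 to 2787 without 1 library; between LT-HSC mutants and LT-HSC controls 261 with DESeq2, 250 with 12 libraries and 13 to 102 without 1 library; between LT-HSC controls and MPP controls 3410 to 4873 without 1 library. Remaining differences were 2468 with 12 libraries, 1456 of them shared with the reported set, and 604 to 2055 without 1 library. New differences were 94 with DESeq2, 138 with 12 libraries and 10 to 57 without 1 library, and reduced ones 96, 82 and 1 to 32. The cause was not tested. With the replicate number as a block, 1625, 4881 and 48 genes passed in the comparisons of LT-HSC mutants with MPP controls, LT-HSC controls with MPP controls and LT-HSC mutants with LT-HSC controls, and 1299 differences were remaining, 23 new and 16 reduced; same-numbered libraries correlated at -0.263 to 0.071 in the comparisons with MPP, where the samples share only a number. Of the genes examined singly, 85 of 131 calls against MPP in mutants and 12 of 53 against LT-HSC controls held under every alternative, and none of the calls changed direction. These calls include genes whose direction the filter on low counts had fixed. The 3 libraries a group, unequal cell input and the mix of genotypes among controls limit these results. In simulation with a common spread for all genes, changes of 1 log2 unit between the LT-HSC groups were recovered in only 29% of cases.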
